A study of Bos taurus with 15 samples.

Results

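Transcripts of the complement components and of C1 inhibitor (SERPING1) were followed in the bovine endometrium around the time when the conceptus attaches. The members were the array probes, controls excluded, whose gene name was C3, C1QA, C1R, C1S, CFB or SERPING1, or whose annotation named a complement component, a complement factor or SERPING1, with receptors left out. This gave 21 probes, each of a different gene, of 15208 probes in all. The 2 probes of the receptor subunits ITGAM and ITGB2 were left out, whereas C1QBP and both chains of C4b-binding protein were kept because their annotation carries the words of the rule.

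RNA came from caruncular endometrium, the part of the uterine lining where cotyledons attach, of Japanese Black cows, with 1 cow and 1 one-color array per sample. The 4 groups were non-pregnant cows on day 15 (NP15, 4 arrays), pregnant cows on day 15 (P15, 3 arrays), non-pregnant cows on day 18 (NP18, 4 arrays) and pregnant cows on day 18 (P18, 4 arrays), where insemination counts as day 1. According to the methods, a cow was taken as pregnant when trophoblast was seen by eye in the opened uterine horn, so that the non-pregnant cows had been inseminated too. The age of the cows is not given in the sources used here. As a check of the tissue, all 9 epithelial and all 9 stromal marker probes passed the filter on low signals. Each tissue piece is a mixture of cell types, so that more cells of a type and more RNA per cell cannot be told apart.

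Complement is a cascade of serum proteins that marks targets for removal. In the classical pathway, the recognition molecule C1q, built of the chains C1QA, C1QB and C1QC, binds its target and activates the proteases C1R and C1S, which cleave C4 and C2 to form the enzyme that splits C3. The alternative pathway forms its own C3-splitting enzyme with factor B (CFB), which properdin (CFP) stabilizes, and the terminal components C5 to C9 build a membrane pore. C1 inhibitor blocks C1R and C1S, while factor I (CFI) and C4b-binding protein (C4BPA and C4BPB) inactivate the fragments C3b and C4b. Several complement genes are known to respond to interferons, and interferon tau is the signal by which the ruminant trophoblast announces pregnancy.

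The probes were 60 bases long, and their last 30 bases are given for the genes on which the results turn, because RNA labeled from the poly(A) tail is read best near its 3′ end. Capitals mark AATAAA, the signal that precedes the poly(A) tail. The first 7 genes were called higher in P18 than in NP18, CFB and CFI varied among non-pregnant cows, and C3 and C1QA lay near background.
C1QB: ccctaaatgattgaatAATAAAtgacctct
C1QC: cacaAATAAAtaactaaatcaacagcgcca
C1R: ttccatttttataccatggcataactgaat
C1S: ccatcactcgctactcttgttgagatgcca
C4A: agccctaggcaaaaccagggactcAATAAA
C2: ccttacataggaaattacccagttatgaaa
SERPING1: gtacagatacagcggacttcacaAATAAAa
CFB: tgctggaaaggggcatgagaccaaattaaa
CFI: aaaggtctctacaaagtttatgccattttg
C3: gcgccctggagctggccaggagtgacctgg
C1QA: gtggttctgtgtgtatgctggggtgccatt
Over the whole length, AATAAA was found in 6 of the 21 member probes (28.6%) and in 11.3% of all probes on the array. The same letters on the other strand (TTTATT) were in 0 member probes and in 4.14% of all probes. Of the 7 genes called on day 18, 4 held AATAAA. The GC content of the member probes ran from 30.0% to 73.3%, the highest being the C3 probe, with a median of 45.0% against 43.3% for all probes.

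Levels are given as array medians, that is, the background-corrected signal divided by the median signal of the 15208 probes on the same array. A level can be compared between arrays for 1 probe but not between probes. Tests were made on log2 of the level with limma, over the 13164 probes well above background on at least 3 of the 15 arrays, with p adjusted by Benjamini-Hochberg over all of them. A probe counted as called if that value was under 0.05 and the groups differed more than 2-fold. Of the 21 members, 19 were tested, C9 and C4BPB did not pass the filter, and 12 were well above background on all 15 arrays. The median signal of an array was 315 to 409 in NP15, 545 to 686 in P15, 790 to 838 in NP18 and 407 to 563 in P18. No scan day and no slide held arrays of more than 1 group. NP18, P15 and P18 were each scanned on 1 day of their own and NP15 on 3 others. Scan day and group thus cannot be told apart in any of the comparisons, also where scan day enters as a random effect. The p-values measure the spread between the cows of these groups.

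On day 18, pregnant cows had higher levels of the C1q chains C1QB and C1QC, the proteases C1R and C1S, both parts of the classical convertase (C4A and C2) and C1 inhibitor. C1QA, C1RL, CFI and C4BPA were not called. limma called 7 of the 19 members tested (36.8%) in P18 against NP18, all 7 higher, where 3.65% of all probes were called higher and 5.75% either way. The 7 were C2, C1R, C4A, C1QB, C1QC, C1S and SERPING1, with differences from 1.36 to 2.98 on the log2 scale. The median difference of the 19 members was 0.98, and that of all probes tested was 0.07. All P18 arrays lay above all NP18 arrays for these 7 members, and for 10.5% of all probes. The reverse held for 0 members and 5.8% of all probes.

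C2, which supplies the protease of the classical C3 convertase, differed most. Its level was 0.325, 0.754, 0.745 and 0.286 in NP18 and 4.47, 3.25, 5.18 and 2.68 in P18. The lowest P18 cow was over all 4 NP18 cows, and the same was true against both day 15 groups, where the level was from 0.343 to 0.786. The difference between P18 and NP18 was 2.98 ± 0.35 (SE, log2), a 7.89-fold difference (limma adjusted p = 0.000149). The exact permutation test gave p = 0.0286, the smallest that 4 against 4 arrays allow, for each of the 7 genes.

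C4A encodes the component C4, whose fragment C4b anchors the convertase to the target. Its level in NP18 was 53.4, 112, 147 and 86.6, and in P18 it was 502, 424, 420 and 283. All P18 cows exceeded all NP18 cows, while 3 of the 4 NP18 cows lay within the range of day 15, which ran from 46.6 to 137. The log2 difference was 2.10 ± 0.35, or 4.27-fold (limma adjusted p = 0.00306). The files name the probe C4A, and near-identical copies of C4, where present, would share its signal.

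The 2 C1q chains with a bright probe ran together. For C1QB, the NP18 cows had 19.2, 26.4, 15.9 and 19.7 and the P18 cows 67.4, 86.0, 142 and 63.3. For C1QC, the corresponding levels were 5.02, 5.01, 4.10 and 4.18, and 15.5, 17.2, 28.1 and 14.0. In both chains replicate 3 was the highest and replicate 4 the lowest of the P18 cows, and no P18 cow overlapped with NP18. The log2 difference was 2.09 ± 0.33 for C1QB (4.26-fold, limma adjusted p = 0.00189) and 1.98 ± 0.31 for C1QC (3.95-fold, limma adjusted p = 0.00168). Over the 15 arrays, the log2 levels of the 2 chains had a Pearson r of 0.983, a description over arrays that share their groups.

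The C1QA probe did not follow the other 2 chains. It was near background, at 0.0903, 0.0193, 0.114 and 0.0827 in NP18 and 0.0793, 0.0660, 0.0544 and 0.0838 in P18, and it was well above background on 3 of 4 arrays in NP18 and on 0 of 4 in P18. These ranges overlapped, and no fold is given because the P18 values have only a bound. The correlation of C1QA with C1QB was -0.139 and with C1QC -0.0544 over the 15 arrays. C1QA was well above background on 9 of them, so that these values do not show whether its transcript followed the other chains. In the RefSeq annotation of ARS-UCD2.0, C1QA lies next to C1QC, with C1QB separated from C1QC by 1 gene.

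Of the C1 proteases, C1R, which cleaves C1S, had the more regular difference. The C1R level was 30.8, 37.3, 42.6 and 11.3 in NP18 and 114, 125, 176 and 99.02 in P18. Every P18 cow was higher than every cow of the other 3 groups, whose highest was 51.3. The log2 difference was 2.20 ± 0.40 (4.60-fold, limma adjusted p = 0.00504). C1S, which cleaves C4 and C2, was 0.687, 1.499, 2.15 and 0.463 in NP18 and 5.53, 3.49, 2.89 and 2.703 in P18. The groups did not overlap, but the NP18 cows fell into a higher and a lower pair. The log2 difference of 1.80 ± 0.50 (3.48-fold, limma adjusted p = 0.0443) was near the threshold, and the call was lost in 11 of the 15 fits that left out 1 array, with adjusted p up to 0.114. The genes of C1R and C1S are neighbors in the annotation, as are those of CFB and C2.

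SERPING1 encodes C1 inhibitor, the serpin that binds and blocks C1R and C1S. Its level was 33.8, 27.7, 36.6 and 11.2 in NP18 and 78.1, 66.7, 62.3 and 50.6 in P18. The P18 cows were above all others, and NP18 replicate 4 stood below the other 3 NP18 cows, as it did for C1R and C1S. The log2 difference was 1.36 ± 0.31 (2.56-fold, limma adjusted p = 0.0197), the smallest of the 7. Without NP18 replicate 4 or without P18 replicate 2, SERPING1 was no longer called and 5 members were, with an adjusted p for SERPING1 of at most 0.056. Over all probes, 546 and 428 were called in these fits, instead of 757. Within an array, the log2 level of C1R minus that of SERPING1 was from -0.13 to 0.43 in NP18 and from 0.54 to 1.497 in P18, a difference of 0.85 between the groups (exact permutation test, p = 0.0286), which did not pass after adjustment over the 3 gene pairs compared (p = 0.0858). For C1S minus SERPING1 the change was 0.44 (exact permutation test, p = 0.343). These pairs were chosen after their values were seen.

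**Figure D1:**
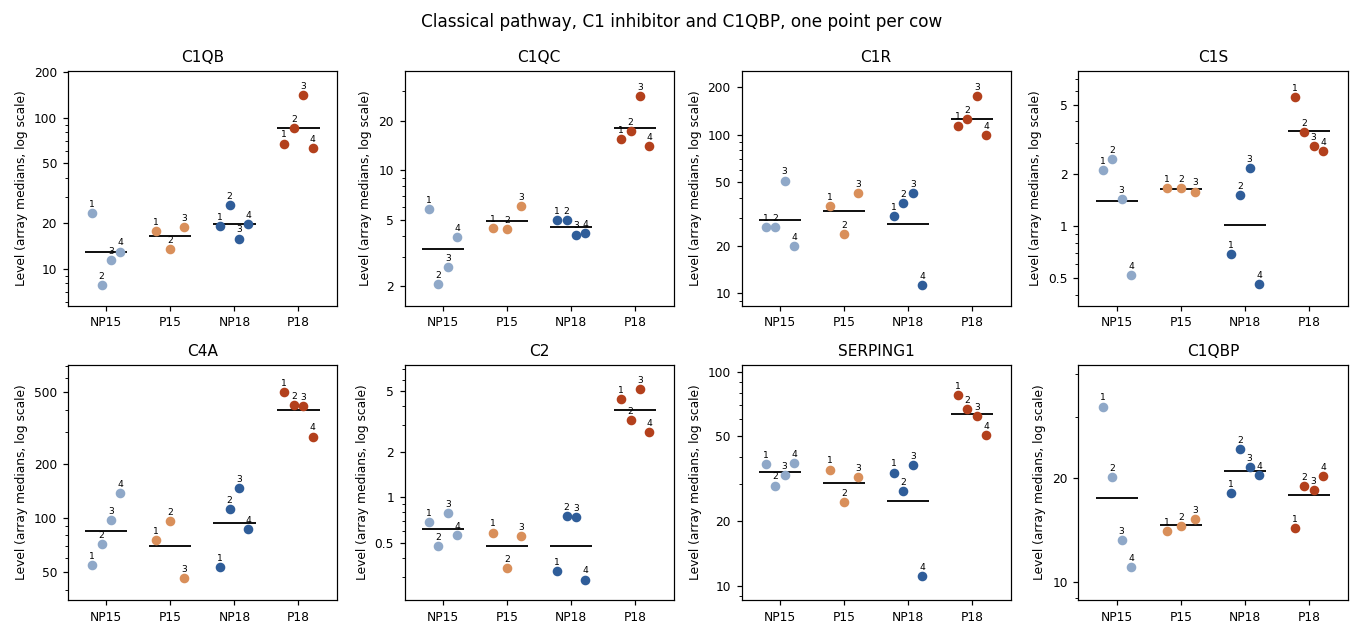
Level in array medians (log axis) of 8 members in the 4 groups, with 1 point per cow, the replicate number above each point and a black line at the mean of the log2 values. In C1QB, C1QC, C1R, C1S, C4A, C2 and SERPING1 the 4 P18 cows lie above all NP18 cows, whereas C1QBP overlaps between the groups.

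C3, the component on which the pathways converge, could be measured only in part. Its level was 0.0354, 0.0871, 0.0512 and 0.0455 in NP18, with 0 of 4 arrays well above background, and 0.154, 0.08315, 0.185 and 0.0790 in P18, with 2 of 4. The 2 lower P18 cows fell among the NP18 values. The difference was not called (limma adjusted p = 0.0513), and no fold is given because the NP18 arrays and the 2 lower P18 arrays were not measured above background. The lowest signal well above background was 0.0196 to 0.0519 array medians in P15, 0.0304 to 0.0475 in NP15, 0.0660 to 0.0950 in NP18 and 0.102 to 0.180 in P18, and the group means of C3 were in the order P15, NP15, NP18 and P18, at 0.0258, 0.0431, 0.0548 and 0.125. The part of background in the C3 values was not tested.

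CFB, the protease of the alternative pathway, varied widely among the NP18 cows. In NP18 it was 0.942, 20.5, 19.7 and 29.0, and in P18 it was 26.5, 13.1, 44.5 and 11.99. Replicate 1 of NP18 was far below the other 3 NP18 cows, which overlapped fully with P18. The log2 difference of 1.02 ± 0.91 was not called (limma adjusted p = 0.531), and without NP18 replicate 1 it was -0.13. For C2 minus CFB within an array, P18 and NP18 differed by 1.96 on the log2 scale (exact permutation test, p = 0.143).

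Among the other members tested on day 18, none was called. CFI, which cleaves C3b and C4b, was 0.33 ± 0.45 higher on the log2 scale (adjusted p = 0.702), and C1RL, a C1r-like protease, 0.41 ± 0.55 (adjusted p = 0.697). C7, which starts the insertion of the membrane pore, ran from 0.160 to 0.612 in NP18 and from 0.368 to 1.11 in P18 (0.95 ± 0.52, adjusted p = 0.282). C1QBP, a protein mainly of mitochondria that binds C1q, was 18.1 to 24.3 in NP18 and 14.3 to 20.2 in P18 (adjusted p = 0.65). C5, C8A, C8B, CFP and C4BPA were at 0.734 array medians or less on every array, and C4BPB was well above background on none.

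**Figure D2:**
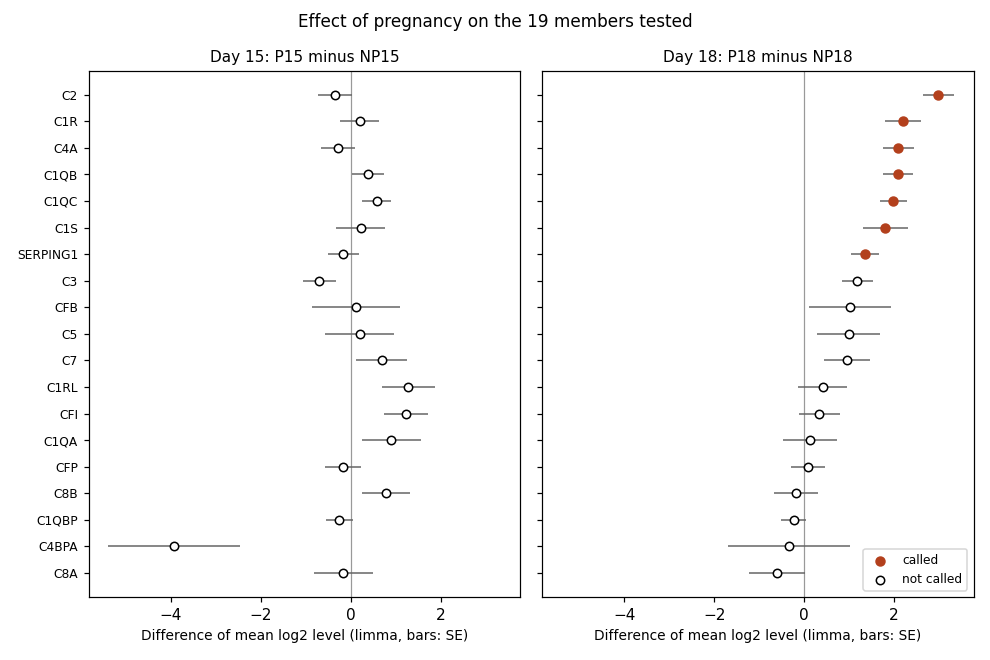
Difference of mean log2 level between pregnant and non-pregnant cows for the 19 members tested, on day 15 (left) and day 18 (right), with bars of 1 SE and filled points for called probes. On day 18 the 7 called members lie from 1.36 to 2.98, and on day 15 no member was called. The point for C4BPA on day 15 compares with P15 arrays that were all near background, so that its size is uncertain.

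The limits of the day 18 result concern the scan day and the P18 tissue. When scan day entered as a random effect, 1 member, C2, was called in limma, as were 49 of all 13164 probes, and the other 6 kept differences from 1.36 to 2.20 with adjusted p from 0.222 to 0.704. P18 and NP18 were each scanned on 1 day of their own. This fit therefore cannot separate scan day from group, and the C2 call does not show a difference apart from scan day. The methods' t-test with adjustment called 3 of the 19 members and 188 of all probes.

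On day 15, limma called 0 of the 19 members in P15 against NP15, where 0.798% of all probes were called, and 3 members had an unadjusted p under 0.05 with a difference over 2-fold, as had 669 of the 13164 probes. The methods' t-test called 0 members with adjustment and 1 without it, as it did 0 and 433 of the 13164 probes. The 7 genes called on day 18 had P15 levels that overlapped with those of NP15. For C2 they were 0.684, 0.474, 0.786 and 0.565 in NP15 and 0.586, 0.343 and 0.553 in P15. For C1R they were 26.1, 26.1, 51.3 and 19.9, and 35.5, 23.6 and 43.0. SERPING1 was 37.1, 29.4, 33.0 and 37.6 in NP15 and 35.0, 24.8 and 32.4 in P15. In these 3 genes the groups overlapped, with limma adjusted p of 0.703, 0.88 and 0.865 in the same order. The median difference over the 19 members was 0.19, and that over all probes was -0.06.

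The 3 members with an unadjusted p under 0.05 on day 15 were CFI, C1RL and C4BPA. CFI was 1.55, 1.40, 1.83 and 2.12 in NP15 and 3.57, 4.26 and 4.15 in P15. The groups did not overlap, and 5.93% of all probes were likewise higher in P15 without overlap. CFP was the 1 member lower in P15 without overlap, as were 9.71% of all probes, and its log2 difference was -0.18 (adjusted p = 0.884). For CFI, the log2 difference of 1.22 ± 0.49 had an adjusted p of 0.257 in limma and an exact permutation p of 0.0286, the smallest possible here. C1RL was 1.08, 0.713, 1.53 and 0.907 in NP15 and 1.02, 4.18 and 3.48 in P15, so that 1 of the 3 P15 cows lay among the NP15 cows (1.27 ± 0.60, adjusted p = 0.336).

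C4BPA, the chain of C4b-binding protein that binds C4b, was near background in all P15 cows. It was 0.207, 0.524, 0.00620 and 0.380 in NP15 and 0.01315, 0.01055 and 0.00411 in P15, with 3 of 4 and 0 of 3 arrays well above background. Replicate 3 of NP15 was at the level of the P15 cows and the other 3 were above them. The difference was not called (limma adjusted p = 0.228). Set against the smallest signals well above background in P15, the NP15 mean was 4.61-fold higher, and from 2.87 to 12.6 when 1 NP15 array was left out. This is no firm bound, because NP15 replicate 3 was itself not well above background. Without NP15 replicate 3, C4BPA was the 1 member called on day 15, among 344 of all probes instead of 105. On day 18 it was 0.0293, 0.474, 0.133 and 0.315 in NP18 and 0.0584, 0.0207, 0.734 and 0.259 in P18, with broad overlap.

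For 2 members, the difference between pregnant and non-pregnant cows was itself different on the 2 days. limma called 2 of 19 (10.5%) in the test of that difference, C2 and C4A, both with a larger effect on day 18, where 2.07% of all probes were called in this direction and 2.72% in either. The effect on day 18 exceeded that on day 15 by 3.34 ± 0.51 for C2 (log2, adjusted p = 0.00949) and by 2.38 ± 0.52 for C4A (adjusted p = 0.0295). For C1QB, C1R, SERPING1, C1QC and C1S the excess was 1.72, 2.01, 1.52, 1.41 and 1.58 with adjusted p of 0.0682, 0.0773, 0.0866, 0.102 and 0.257, so that a difference between the days was not shown for them. The C4A call was lost without P15 replicate 1 or 3 and without P18 replicate 2 or 3, with adjusted p up to 0.0791. With normexp background correction 8 members and 1329 of all probes were called in this test, instead of 2 and 358, and with the scan day as a block 0 of either. Without NP15 replicate 2 or NP18 replicate 2, 1 more member was called, C1QB or C3, respectively, while 229 and 307 of all probes were called, instead of 358.

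Between day 15 and day 18 of pregnancy, limma called 7 of 19 members (36.8%), all higher in P18, where 7.58% of all probes were called higher, 4.31% lower and 11.9% either way. They were C2, C4A, C1QB, C3, C1R, C1QC and SERPING1, with log2 differences of 2.97, 2.52, 2.36, 2.20, 1.93, 1.86 and 1.07. This comparison shares the P18 arrays with that of P18 and NP18. With the scan day as a block, 0 members and 0 of all probes were called, with adjusted p of 0.0877 for C2 and 0.122 for C4A. The C3 level was 0.0312, 0.0220 and 0.0243 in P15, with 2 of 3 arrays well above background, and all of these were below the 4 P18 cows, of which 2 were well above background (limma adjusted p = 0.00257). The size of this difference moved with the background correction, from 2.20 to 1.01 on the log2 scale with normexp. The SERPING1 difference was close to the fold limit (1.07 ± 0.34, adjusted p = 0.0453), and the call was lost in 10 of the 15 fits without 1 array. Without P15 replicate 2, 5 members were called, and without NP18 replicate 1, which bears only on the shared spread, 10 were. Over all probes, 883 and 1730 were called in these 2 fits, instead of 1566. Over the 19 members 12 were higher in P18 without overlap, and so were 26.7% of all probes. The 1 member lower without overlap was C1QA, where no P18 array was well above background, and 16.1% of all probes were lower in this way.

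During the estrous cycle, 1 of 19 members (5.26%) was called in NP18 against NP15, where 2.89% of all probes were called higher and 7.16% in either direction. This was CFI, at 3.05, 9.91, 5.46 and 17.4 in NP18. All NP18 cows were above all NP15 cows, whose levels are given above, and replicate 1 was the lowest of the 4. The log2 difference was 2.10 ± 0.45 (4.29-fold, limma adjusted p = 0.0119, exact permutation p = 0.0286). The call was lost with the scan day as a block (adjusted p = 0.227), with both groups fitted alone and with the methods' t-test after adjustment. Of all probes, 5.96% were higher in NP18 without overlap and 7.11% lower, the latter with 0 members. In P18, CFI was 6.37, 8.92, 19.3 and 6.56. The mean log2 levels stood in the order NP15, P15, NP18 and P18, where NP18 overlapped with both pregnant groups and the other pairs did not overlap. P18 was 1.21 ± 0.49 above P15 on the log2 scale, which was not called (adjusted p = 0.103).

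CFB, C1RL, C8A and C5 had the same lowest NP18 cow. CFB was 3.24, 3.27, 7.03 and 6.52 in NP15 against 0.942 in NP18 replicate 1 and 19.7 to 29.0 in the other 3 NP18 cows. C1RL was 0.841 in that cow and 2.44 to 6.37 in the other 3. C8A, a chain of the membrane pore, was 0.142 and 0.298 to 0.602, respectively. Replicate 1 was also the lowest for C4BPA, CFI, C4A, C3, C8B, C9 and C1QBP, whereas it was the highest NP18 cow for C7 (0.612), CFP (0.302), C1QC and C4BPB. With all arrays, the log2 differences of NP18 and NP15 were 1.13 for CFB, 1.33 for C1RL, 1.56 for C8A and 1.36 for C5, none of them called. Without NP18 replicate 1, a cow singled out after its values were seen, 1565 of all probes were called instead of 942. The 5 members called then were CFI (2.52), CFB (2.28), C5 (2.06), C8A (1.96) and C1RL (1.86). That cow was the lowest of NP18 in each of these 5. Leaving it out therefore raises their differences, and the calls lend them no support. C5 was well above background on 2 of 4 arrays in NP15 and on 2 of 4 in NP18. With all arrays, its difference was as low as 0.02 in the alternative settings, so its size is uncertain. The summed level of the 9 epithelial marker probes was 120 in NP18 replicate 1 and 262 to 371 in the other 3 NP18 cows, 161 to 288 in NP15 and 104 to 138 in P15. Its part in these values was not tested.

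**Figure D3:**
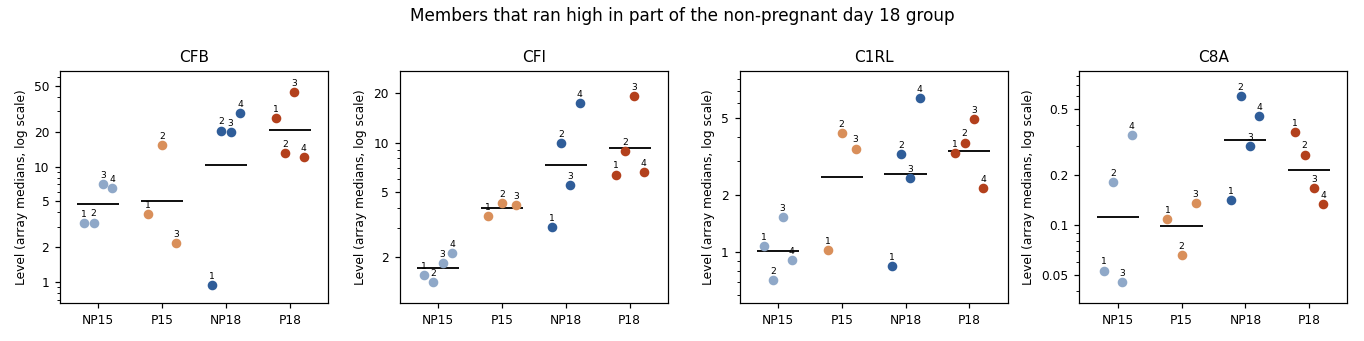
Level in array medians (log axis) of CFB, CFI, C1RL and C8A in the 4 groups, with 1 point per cow, the replicate number above it and a black line at the mean of the log2 values. Replicate 1 of NP18 is the lowest NP18 cow in all 4 panels, with CFB at 0.942 against 19.7 to 29.0 in the other 3.

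The P15 cows also differed among themselves. Replicate 2 of P15 had a CFB level of 15.4 against 3.89 and 2.17 in the other 2, and C1RL was 4.18 against 1.02 and 3.48. C1RL and CFI had a Pearson r of 0.851 over the 15 arrays, C1R and C2 one of 0.937, and C2 and C4A one of 0.899. These values describe arrays that share groups and carry no test. Of the probes that are no members, those with the profile most like C1R over the 15 arrays were SOD2 (r = 0.957), ITM2B (0.942) and SHFL (0.931), among 6289 probes compared. For SERPING1 they were TRIM38 (0.877), ABCA1 (0.873) and JADE1 (0.863). For C1S they were HAX1, GRINA and ITGB6, with r from 0.818 to 0.839, and for CFB they were PIH1D1, ACKR4 and BCL2L15, with r from 0.834 to 0.865.

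C9, the component that polymerizes into the pore, was not tested because 1 of 15 arrays was well above background, namely NP18 replicate 4 at 0.302. The other NP18 cows were at 0.0389, 0.0687 and 0.0406 and the NP15 cows at 0.0101 or less. No fold is given, since the other arrays were not measured above background. Without the filter on low signals, C9 was added to the calls of NP18 against NP15 and of P18 against P15.

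**Figure D4:**
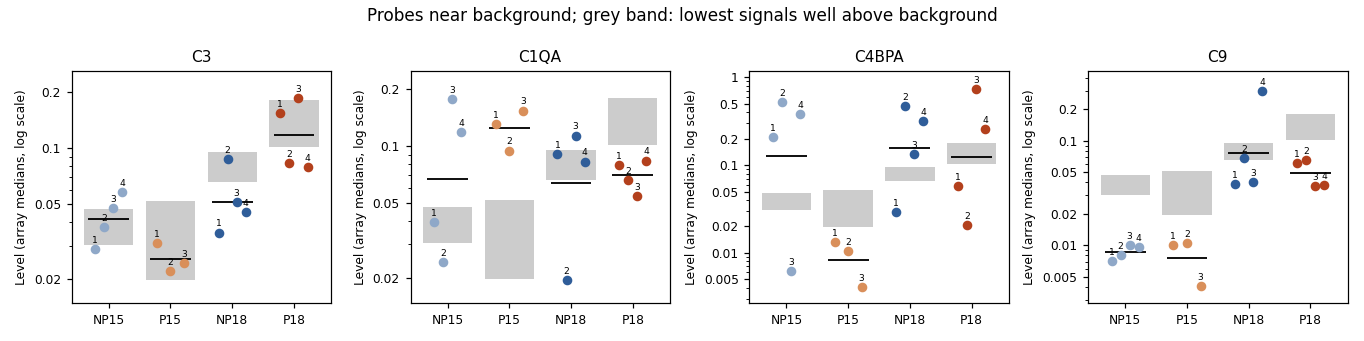
Level in array medians (log axis) of C3, C1QA, C4BPA and C9, with 1 point per cow, the replicate number above it and a black line at the mean of the log2 values. The grey band of each group spans the lowest signals well above background on its arrays, and it is highest in P18, from 0.102 to 0.180.

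Other genes of the pathway are described from lists that leave out the members. Of the other activators of the classical and lectin pathways, 4 of 8 on the array were tested and 0 were called on day 18. PTX3, a pentraxin that binds C1q, was 3.55 ± 0.66 higher in P18 than in P15 on the log2 scale (adjusted p = 0.00445). CFD, the protease that cleaves factor B, was called lower in P18, where 2.1% of all probes were. It was 10.1 to 12.7 in NP18 and 4.47 to 5.81 in P18, and the log2 difference was -1.20 ± 0.23 (adjusted p = 0.00619). Its groups did not overlap, and P18 minus P15 was -1.67 (adjusted p = 0.00118).

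Of the regulators outside the members, 8 of 9 were tested and 0 were called between pregnant and non-pregnant cows on either day (CD46 missed the fold limit on day 18, at -0.95 and adjusted p = 0.0465). CD46, which protects cells of the host as a cofactor of factor I, was 1.40 ± 0.27 higher in NP18 than in NP15 (log2, adjusted p = 0.00679), as CFI was. VTN, which keeps the pore out of membranes, was lower, with a log2 difference of -1.76 ± 0.26 (adjusted p = 0.0013), where 4.26% of all probes were called lower. Of 5 receptor probes tested, ITGB2, a subunit of the receptors for C3 fragments, was 2.7 to 3.97 in NP18 and 4.41 to 9.57 in P18 (1.06 ± 0.28, adjusted p = 0.0385). The probe of ITGAM, the other receptor subunit named above, was well above background on 0 arrays in each group, so that a rise of the whole receptor is not shown.

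The contact system holds other proteases that C1 inhibitor blocks. In the list of these proteases and their partners, 8 of 11 genes on the array were tested, and on day 18 0 were called higher and 2 lower. BDKRB2, a bradykinin receptor and among those called lower, was well above background on 3 of 4 NP18 arrays and on 0 of 4 P18 arrays.

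Marker genes of other cells moved with the P18 group. Of the trophoblast list, 11 of 15 genes on the array were tested and 6 were called higher and 1 lower on day 18, and its summed level was 1.47 to 2.76 array medians in NP18. In P18, the sum was 1.36, 138, 81.8 and 603. The sum of P18 replicate 1 was thus below all NP18 sums. Most of the NP18 sums came from ELF5 (0.188 to 1.4) and TFAP2C (0.495 to 1.53), both well above background on all 4 NP18 arrays. The NP18 sums are therefore no measure of trophoblast. IFNT2, which encodes an interferon tau, was at most 0.0344 in NP18 and was well above background on 3 of the 4 P18 arrays. TKDP4, another gene of the list, was well above background on all 4 P18 arrays and on 0 NP18 arrays. Its level was 0.271 or more in P18 and 0.0849 or less in NP18, so that replicate 1 was not free of trophoblast transcripts. Replicate 1 had the highest C4A, C1S and SERPING1 of the 4 P18 cows, was second in C2 and last but 1 in C1R, C1QB and C1QC, and replicate 4, with the highest trophoblast sum, had the lowest level of all 7 called members. With replicate 1 as the only P18 array, its spread taken from the other groups, the log2 differences from NP18 were 3.22 for C2, 2.46 for C1S, 2.43 for C4A, 2.06 for C1R, 1.77 for C1QC, 1.76 for C1QB and 1.65 for SERPING1. Calls are not given for this fit, because it holds 1 P18 array.

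Of 9 macrophage and other myeloid markers tested, 2 were called higher on day 18, CTSS and MSR1. The summed level of the list was 30.9 to 47.7 in NP18 and 64.3, 83.9, 119 and 60.4 in P18. All P18 cows were above NP18, and most of the sum came from the CTSS probe, at 43.8 to 81.9 in P18. Macrophages are known as a main source of C1q. Of the defining markers, CD14 and CD68 were well above background on all 15 arrays and had log2 differences of 0.82 (adjusted p = 0.189) and 0.11 (adjusted p = 0.902). The median log2 difference of the 9 markers was 0.82, and that of all probes tested was 0.07. The part of the myeloid cells in the complement values was not tested.

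All 13 interferon-stimulated genes on the array were tested, and 12 were called higher on day 18, with a summed level of 54.0 to 94.5 in NP18 and of 1000 to 1760 in P18. In P15 the sum was 72.9, 316 and 112, with 0 genes called. Replicate 2 of P15, the cow with the highest sum, had the lowest C2, C1R, SERPING1, C1QB and C1QC levels and the highest C4A and CFB levels of the P15 cows. Of the 4 smooth muscle genes, 2 were called lower on day 18, of 9 stromal genes 1, and of 7 endothelial genes 2, and of 9 epithelial genes 0 were called. In the T and natural killer cell list, 1 of 9 genes was called higher, in the liver plasma protein list 1 of 8, and in the erythrocyte list 0 of 4. No part of these lists in the complement values was tested.

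**Figure D5:**
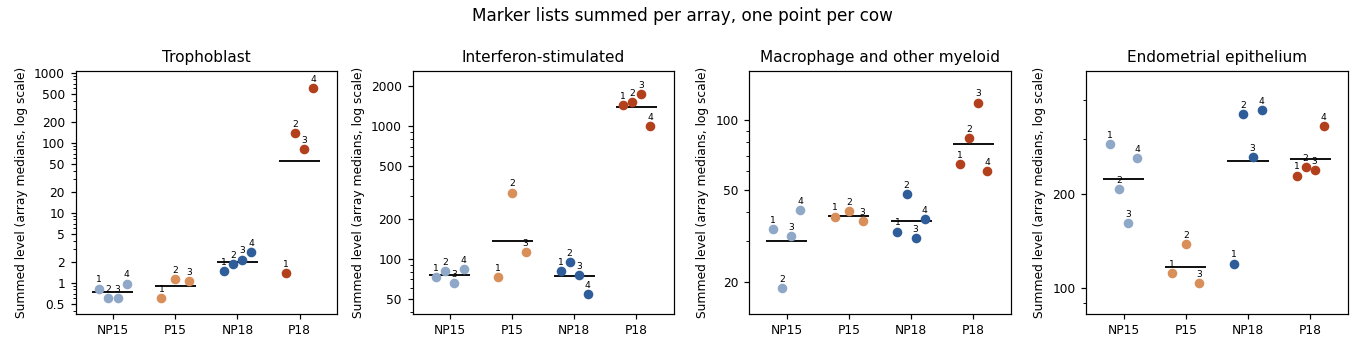
Summed level of the marker genes on the array (array medians, log axis) for trophoblast, interferon-stimulated, macrophage and other myeloid, and endometrial epithelium lists, with 1 point per cow, the replicate number above it and a black line at the mean of the log2 values. Replicate 1 of P18 has a trophoblast sum of 1.36 against 81.8 to 603 in the other 3 P18 cows, while its interferon-stimulated sum lies among theirs.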

How the data were processed

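Per the deposited files, spot intensity had been corrected for background by the authors' Feature Extraction 9.5, without scaling between arrays. A deposited table of log2 values by the authors, scaled close to the 75th percentile of each array, served as an alternative, and all of its per-sample columns had a sample. Here intensities were divided by the median of the array, as in the methods, and log2 was taken, without control spots and spots marked as outliers. limma 3.58.1 in R 4.3.3 fitted 1 mean per group over the 15 arrays with moderated variances, tested on simulated data. The methods state an unpaired t-test, kept as an alternative. Exact permutation tests were two-sided. For a probe not well above background on any array of a group, each of those arrays took the larger of its own signal and the smallest signal well above background. The arrays of the other group kept their own signals, so that the fold is a firm bound only where all of these were well above background.

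The members, the gene lists and the tests were chosen with earlier results of these data known. Every member is named, those named in the rule or called in any comparison array by array, and genes of the other lists where called or defining. The outlying cows, the pairs of genes compared within arrays and the P18 array with a low trophoblast sum were chosen after seeing the data. Symbols came from the files and the RefSeq table of ARS-UCD2.0. Tables were made with pandas 2.3.3 and numpy 2.4.6 in Python 3.11.15, and figures with matplotlib 3.10.9. A planned search of promoters for motifs was not run, as no promoter sequences were used here. The number of arrays, 3 or 4 per group, limits the precision. A gene called in the list of C1 inhibitor targets is not reported here.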

Additional observations from a re-analysis of the deposited data

Results flagged for a closer look

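CFB stood apart in NP18 replicate 1, where its level was 0.942 against 19.7 to 29.0 in the other 3 NP18 cows, a gap that makes up 0.888 of the range of the log2 values. CFP, which encodes properdin, stood apart in P18 replicate 3, at 0.127 against 0.101 to 0.104, a gap of 0.898 of the range, but that spot was not well above background. Of 63 member and group pairs looked at in the groups of 4 arrays, 2 had such a value, and chance gives about 1 in 20.

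The effect of pregnancy differed between day 18 and day 15 by the test of that difference in C2, by 3.34 on the log2 scale, and in C4A, by 2.38.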

How the results depend on the processing

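The counts of members called moved with several choices. In P15 against NP15 the count was 0, and it was 2 with array weights, 3 without adjustment and 1 with the methods' t-test unadjusted. In P18 against NP18 it was 7, and it was 1 with scan day as a random effect and 3 with the methods' t-test adjusted. It was 6 with 75th percentile scaling, the authors' log2 table and the slide as a block. With quantile normalization and with the groups compared alone it was 5. C1S was lost in all of these settings, and SERPING1 in those with a count of 5 or less. Over all probes, 757 calls became 727, 728 and 531, and 827 and 477, in the same order. For the difference between the days it was 2, and it was 8 with normexp background, 4 with array weights, 8 without adjustment and 0 with the scan day as a block. In NP18 against NP15 it was 1, and it was 2 without the filter, 3 with array weights or without adjustment, and 0 with the scan day as a block, with the groups compared alone and with the methods' t-test adjusted. In P18 against P15 it was 7, and it was 13 with array weights, 12 with the groups compared alone or the methods' t-test unadjusted, 11 without adjustment, and 0 with the scan day as a block. With 75th percentile scaling, quantile normalization, the authors' log2 table or the slide as a block it was 6. Calls over all probes moved too: for P18 against P15 they were 1566, and 2408 with array weights, 2091 with the groups compared alone, 2116 with the unadjusted t-test, 2217 without adjustment and 0 with the scan day as a block. With array weights they rose from 105 to 853, 358 to 1332 and 942 to 1529 in P15 against NP15, the difference between the days and NP18 against NP15. Without adjustment they were 669, 1845 and 1638, respectively, and with the unadjusted t-test 433 in P15 against NP15. For NP18 against NP15 they were 1744 without the filter. With the scan day as a block, the groups compared alone and the adjusted t-test they were 54, 157 and 137 there. The cause of these moves was not tested. Without 1 array in turn the counts ran from 0 to 1, 5 to 8, 1 to 3, 1 to 5 and 5 to 10 in the same order, and the counts of 5 and 10 at the upper end came without NP18 replicate 1. Without 1 array in turn, the day 18 difference ran from -0.13 to 1.52 for CFB and from -0.13 to 0.85 for C1RL, reversed without NP18 replicate 1 and highest without NP18 replicate 4, and neither was called.

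With the replicate number as a block, the counts of members called were 0, 7, 2, 1 and 7, although the C4A call for the difference between the days was lost and C1R was called. Same-numbered arrays did not deviate together, with r of their deviations from the group means between -0.259 and 0.304. Of 1351 single values over 41 member comparisons and 34 settings, 1210 kept direction and side of the threshold, 60 passed it, 79 lost it and 2 reversed.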
